A study of Mus musculus with 6 samples.

Results

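The hearts of mice given rivaroxaban were compared with those of untreated mice by messenger RNA sequencing, gene by gene. Rivaroxaban is a drug that blocks the clotting protease factor Xa. The comparison used 4 of the 6 libraries of the series, rivaroxaban replicates 14 and 15 and untreated replicates 8 and 9, and every gene with a mean level of at least 0 log2 CPM (the log2 of a gene's reads, scaled to the size of the library) over the 6 libraries. This rule kept 12981 of the 16229 listed genes. All mice were wild-type C57BL/6 males from 1 supplier, aged 8 to 10 weeks. The dose of rivaroxaban was 3 mg/kg over 7 days. The remaining 2 libraries, replicates 10 and 12, came from mice given dabigatran, an inhibitor of factor IIa (thrombin), at 10 mg/kg for 7 days. The RNA was taken from infarcted heart tissue together with the tissue around it, as the protocol describes for every sample. The labels leave unstated whether the untreated animals were operated on. Nor do they tie each library to its own mouse, so a p-value here weighs a difference only against the spread between these libraries.

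Between 28624427 and 35895896 reads fell in the listed genes in these 4 libraries. Cardiomyocyte genes dominated every library: Myh6, the alpha heavy chain of cardiac myosin, lay between 15.18 and 15.25 log2 CPM over the 6 libraries and Tnnt2, cardiac troponin T, between 13.66 and 13.80. Il1b, a cytokine of acute inflammation, had between 7 and 29 reads per library, and Spp1, osteopontin, which macrophages make in a healing infarct, between 8 and 23. Postn, periostin, which fibroblasts make in a healing infarct and in other settings, was well above the floor, at 1412 to 2330 reads or 5.66 to 5.99 log2 CPM, and Nppb, a natriuretic peptide of strained cardiomyocytes, lay between 7.5 and 8.21. S100a8 and S100a9, listed here as neutrophil markers, had 9 to 17 and 5 to 21 reads per library, and the cytokine gene Tnf 7 to 40. The labelled heart tissue was thus matched by its markers. Of the genes linked to infarcts, Il1b, Spp1, S100a8, S100a9 and Tnf lay near the floor, and Postn and Nppb were clearly measured.

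Factor Xa converts prothrombin to thrombin, and both proteases also signal to cells through protease-activated receptors on vessel lining, muscle and blood cells. Endothelial cells answer flow and such signals with Kruppel-like factors, Notch and BMP target genes. Cardiomyocytes set the length of the action potential through potassium currents. Glucocorticoids act through a nuclear receptor that binds a palindrome in DNA, and cyclic AMP acts through CREB, which binds another.

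Rivaroxaban-treated hearts had higher mRNA of 191 genes and lower mRNA of 128 genes than untreated hearts. Transcription factors, some vessel-lining genes and 2 of 31 feedback inhibitors of receptor kinases (6.45%) were among the rises. Keratins and surface proteins of the mesothelium, the cell sheet on the heart's surface, were among the falls. A gene is called here when its adjusted p in limma is under 0.05. The 319 called genes are 2.46% of those tested, 1.47% in the higher and 0.986% in the lower direction. These shares are to be read beside the count of each list below. The libraries of the 2 groups did not overlap in any called gene, as was so for 50.6% of all tested genes. The changes were modest: the median size over called genes was 0.57 on the log2 scale, 34 rises and 19 falls reached a log2 of 1, and the median change of all tested genes was 0.005. Of the called genes 311 were protein-coding. Among the 1329 genes with a level of at least 7 log2 CPM, 31 were called, 19 higher and 12 lower.

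**Figure D1:**
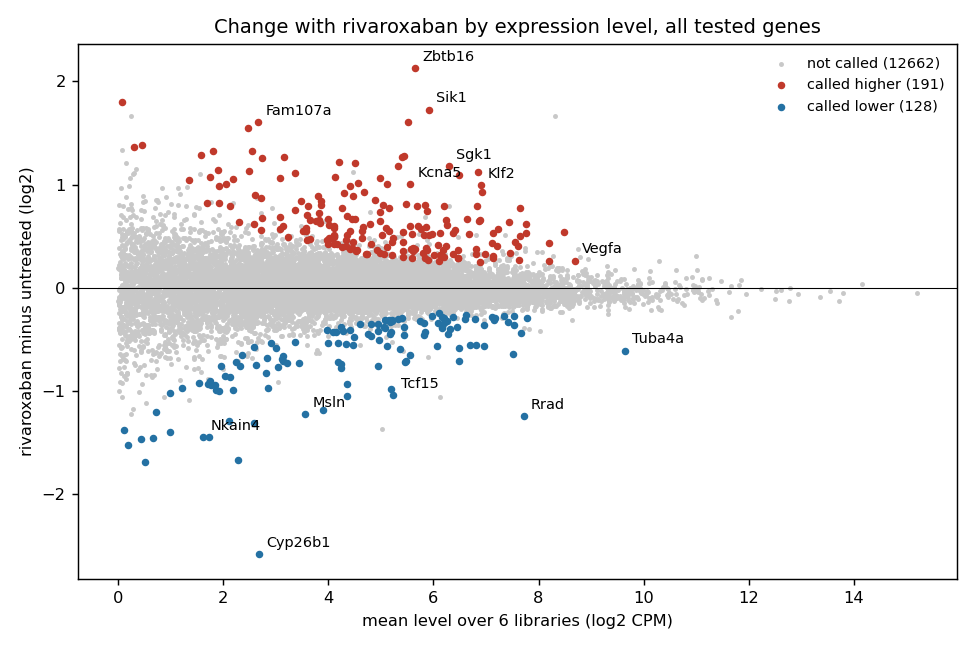
Log2 difference between rivaroxaban and untreated hearts against the mean level over 6 libraries in log2 CPM, 1 point per tested gene. Red points are the 191 called rises and blue points the 128 called falls; the calls reach up to a level of 9.65 (Tuba4a), with none among the 145 genes above it, which extend to 15.21. The largest changes labelled are Zbtb16, at 2.13, and Cyp26b1, at -2.58.

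The number of calls depended on single libraries and on the variance model. It was 61 without rivaroxaban replicate 15, 173 without rivaroxaban replicate 14, 134 without untreated replicate 8 and 212 without untreated replicate 9. Of the 319 genes, 60, 145, 116 and 153 were among the calls in these 4 fits in turn. In all, 56 were called whichever of the 6 libraries was left out, 37 of them higher and 19 lower, and no called gene changed direction in any setting. When limma was fitted without its mean-variance trend, 0 genes were called. The smallest adjusted p was then 0.0578, and 1938 genes had an unadjusted p under 0.05. Below, a gene that was called with each of the 6 libraries left out in turn is named as stable.

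Called potassium channel genes moved in opposite directions, and were 7.5% of the 40 tested, against 2.46% of all tested genes. Kcna5 encodes Kv1.5, the pore of an ultrarapid delayed rectifier current. Its level was 4.96 and 4.90 log2 CPM in untreated replicates 8 and 9 and 5.91 and 5.97 in rivaroxaban replicates 14 and 15. Both treated hearts thus lay about 1 log2 unit above both untreated hearts, a 2.01-fold rise (log2 1.01, SE 0.07, 95% interval 0.86 to 1.16, limma adjusted p = 5.87e-05). Kcna5 (ENSMUSG00000045534) lies on chromosome 6 from 126532551 to 126535412 on mm10. Kcnj2, the main inward rectifier channel of ventricular muscle, which holds the resting potential, had 5.95 and 5.76 log2 CPM in untreated and 5.14 and 5.12 in rivaroxaban hearts. It fell by 0.72 on the log2 scale, to 0.608 of the untreated level (SE 0.07, adjusted p = 8.44e-04; chromosome 11, 111066164 to 111076821). Kcna5 and Kcnj2 were stable. Kcnj3, a subunit of the acetylcholine-gated channel, had a log2 change of -0.37 (SE 0.06, adjusted p = 0.0138), and lost its call without untreated replicate 8 or either rivaroxaban library.

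These 3 genes were the called members of 40 tested potassium channel genes, whose median log2 change was -0.05; without untreated replicate 9, 3 of the 40 rose and 3 fell. Genes of other repolarizing currents missed the threshold, with a log2 change of -0.17 for Kcnh2 (adjusted p = 0.186), -0.21 for Kcnq1 (adjusted p = 0.107), -0.26 for Kcnd2 (adjusted p = 0.29) and -0.03 for Kcnk3 (adjusted p = 0.757). Nor did Cacna1c, the L-type calcium channel, pass (log2 0.01, adjusted p = 0.967). Rrad, a small GTPase that restrains the L-type channel, had 8.59 and 8.29 log2 CPM in untreated and 7.45 and 6.96 in rivaroxaban hearts (log2 -1.24, SE 0.14, adjusted p = 0.00122) and was stable. Rrad was the only called member of 34 genes for calcium, sodium and HCN channels and related GTPases, 2.94% against 2.46% of all tested genes.

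Akap5, an anchor that holds protein kinase A beside membrane channels, had 3.36 and 3.48 log2 CPM in untreated and 2.32 and 1.91 in rivaroxaban hearts (log2 -1.31, SE 0.22, adjusted p = 0.0113). Of 22 tested conduction system markers 2 rose and 2 fell, with a median of -0.01; none was called without untreated replicate 8 or without rivaroxaban replicate 15, 1 in each direction without rivaroxaban replicate 14, and 3 rises and no fall without untreated replicate 9. Cntn2, a surface protein of Purkinje fibres, had 0.40 and 1.27 log2 CPM in untreated and 1.95 and 2.38 in rivaroxaban hearts. Gja5, the connexin of atria, conduction fibres and arterial endothelium, rose 1.61-fold (log2 0.69, SE 0.15, adjusted p = 0.0347). Irx3 and Irx4, homeobox factors of ventricular patterning, fell by 0.46 and 0.38 on the log2 scale (adjusted p = 0.016 and 0.0473). Their relative Irx2 rose by 0.60 (adjusted p = 0.0412), and Irx1 and Irx5, at -0.02 and -0.29, did not pass. Akap5, Cntn2, Gja5, Irx2, Irx3 and Irx4 each lost their call without untreated replicate 8 and without rivaroxaban replicate 15.

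**Figure D2:**
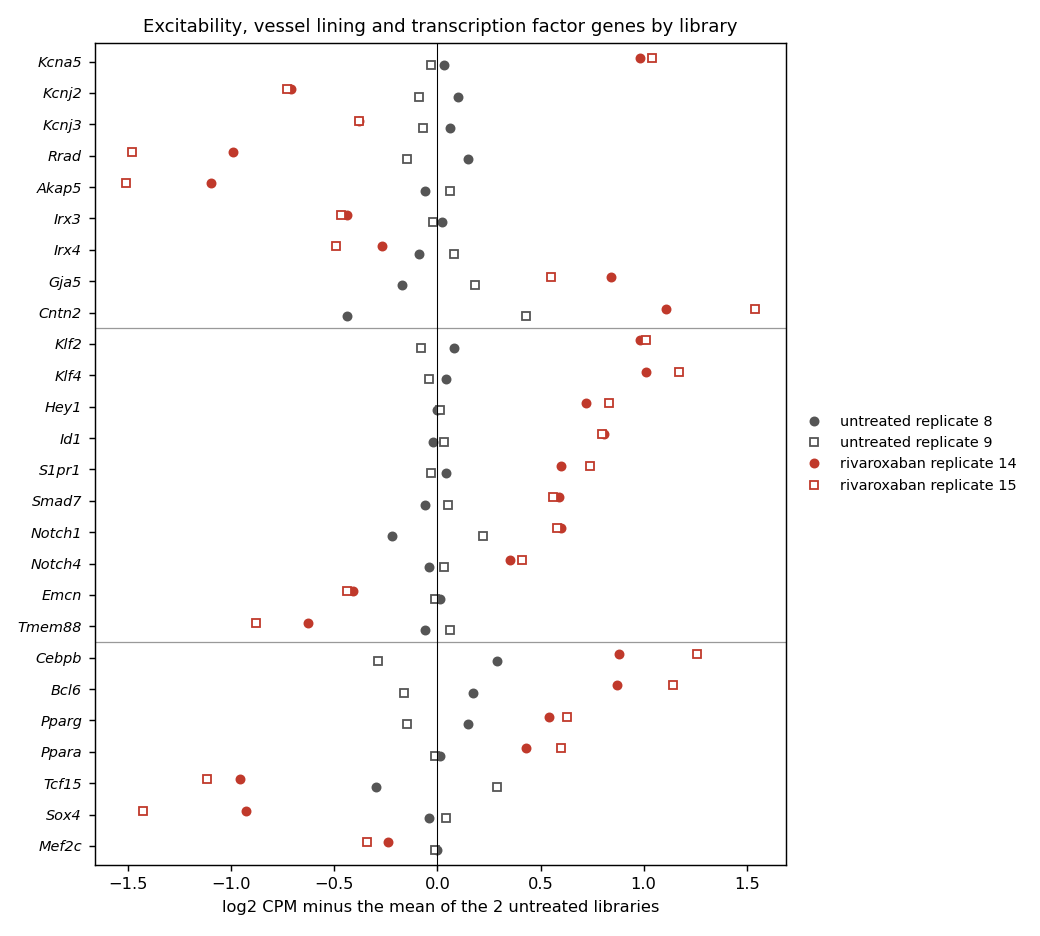
Level in each of the 4 libraries as log2 CPM minus the mean of the 2 untreated libraries, for 26 called genes in 3 blocks (excitability and conduction, vessel lining, transcription factors); circles and squares are the replicates of a group. The red rivaroxaban points of each gene lie on 1 side of both grey untreated points; Kcna5 lies near 1 and Rrad between -0.99 and -1.48.

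Among genes of the vessel lining, several signalling genes were higher and some surface proteins lower. Klf2 and Klf4 are factors that endothelium makes under steady flow. Klf2 had 6.36 and 6.20 log2 CPM in untreated and 7.26 and 7.29 in rivaroxaban hearts, and Klf4 5.87 and 5.79 against 6.84 and 7.00. They rose 2.0-fold and 2.13-fold (adjusted p = 5.87e-05 for each) and were stable. Id1, a target of BMP signalling that blocks helix-loop-helix factors, had 5.39 and 5.44 log2 CPM in untreated and 6.22 and 6.21 in rivaroxaban hearts. It rose 1.75-fold (log2 0.80, SE 0.06, adjusted p = 9.1e-05), with groups far apart beside the gap between replicates, and was stable. Smad7, which inhibits TGF-beta and BMP receptors, rose 1.49-fold (log2 0.58, SE 0.08, adjusted p = 0.00325). S1pr1, a receptor for sphingosine-1-phosphate that keeps vessels tight, had 6.17 and 6.10 log2 CPM in untreated and 6.73 and 6.87 in rivaroxaban hearts (log2 0.67, SE 0.06, adjusted p = 5.94e-04). Smad7 and S1pr1 were stable.

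Of 26 tested genes of the Notch pathway with the HES, HEY and ID factors, 5 rose and none fell. That is 19.2% called against 2.46% of all tested genes, with a median of 0.15 against 0.005. The risers were Id1, Id3 (log2 0.52), the receptors Notch1 and Notch4 (log2 0.59 and 0.38) and Hey1, a Notch target of arterial cells, with 3.82 and 3.83 log2 CPM in untreated and 4.54 and 4.65 in rivaroxaban hearts (log2 0.77, SE 0.10, adjusted p = 0.00323). Hes1, another Notch target, went the other way without passing (log2 -0.26, adjusted p = 0.0877). The list had 3 risers without untreated replicate 8. Without rivaroxaban replicate 15 it had 1, and Hey1, Id3, Notch1 and Notch4 lost their calls. Of 18 endothelial markers 2 rose, Eng, a TGF-beta co-receptor, and Robo4, both 1.20-fold. Emcn, the surface mucin endomucin, fell by 0.43 on the log2 scale, to 0.745 of the untreated level (SE 0.06, adjusted p = 0.00336). None of these 3 was called without rivaroxaban replicate 15, and neither rise was called without any of the other 3 libraries of the comparison. Several further genes of vessel lining, chosen after their values were seen, went in both directions. Gpihbp1, which carries lipoprotein lipase across capillaries, Gata2, Adgrg1 and Apold1 rose by 0.37, 0.43, 0.53 and 0.92 on the log2 scale, while Podxl, another surface mucin, and Tmem88 were lower, at -0.34 and -0.76. The summed level of the 18 endothelial markers was 4510 and 4270 CPM in untreated and 4440 and 4550 CPM in rivaroxaban hearts. The groups thus overlapped in this sum. Cd36, at 10.83 to 11.08 log2 CPM over the 6 libraries, weighs most in it and overlapped too. Gene by gene, both rivaroxaban libraries lay above both untreated ones in 10 of the 18 markers and below them in 3. Over all tested genes the groups stood apart, in either direction, in 50.6%. The median log2 change of the 18 was 0.12, so the sum alone does not show an unchanged endothelial signal. In bulk tissue, fewer cells of a type and less RNA per cell cannot be told apart.

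Vegfa, the main growth factor of endothelium, rose 1.20-fold (log2 0.26, SE 0.05, limma adjusted p = 0.019). It was the 1 called member of 24 genes of the VEGF, angiopoietin and apelin system, 4.17% against 2.46% of all tested genes. Among genes that the deposited Gene Ontology terms assign to angiogenesis, 16 rose and 1, Emcn, fell of 185 tested, which is 9.19% called against 2.46% of all tested genes. Every such term used here was chosen from the deposited terms after their counts were seen, so these counts are a description and not a test.

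Many of the rises were genes of transcription factors. Of 446 tested genes that carry the term DNA-binding transcription factor activity, 27 rose and 5 fell, 7.17% called against 2.46% of all tested genes, with a median log2 change of 0.05. Without rivaroxaban replicate 15, 7 of them rose, and without rivaroxaban replicate 14 or untreated replicate 8, 16. Zbtb16, a zinc finger repressor, had 4.48 and 4.40 log2 CPM in untreated and 6.30 and 6.83 in rivaroxaban hearts, a 4.37-fold rise (log2 2.13, SE 0.27, adjusted p = 0.00269). Zbtb16 was stable. Of 12 tested Kruppel-like factors 3 rose, Klf4, Klf2 and Klf6, and none fell; 10 of the 12 lay above 0 and their median was 0.33, and 5 rose without either dabigatran replicate. Klf3, Klf9 and Klf13 had changes of 0.48, 0.31 and 0.36 that did not pass (adjusted p = 0.057, 0.0514 and 0.0659).

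Of 28 bZIP factors of the AP-1, ATF, CREB and small MAF families, 6 rose: Atf3 (log2 1.27), Fosl2 (0.85), Jdp2 (0.66), Maff (0.55), Jun (0.52) and Mafk (0.36). Fosl2 was stable, and it alone remained called without rivaroxaban replicate 15; 2 of the list were called without untreated replicate 8. Of 33 nuclear receptors 4 rose, the orphan receptors Nr4a1 and Nr4a3 (log2 1.60 and 1.55) and the fatty acid sensors Pparg and Ppara (0.58 and 0.52); the list had no call without rivaroxaban replicate 15, 1 without either untreated replicate and 2 without rivaroxaban replicate 14. The median of the receptor list was -0.03. The glucocorticoid receptor gene Nr3c1 itself did not pass (log2 -0.13, adjusted p = 0.266), nor did the mineralocorticoid receptor gene Nr3c2 (log2 -0.30, adjusted p = 0.0704).

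Other factors that rose, again chosen after their values were seen, were Bcl6, a repressor (log2 1.0), Cebpa (0.58), the antioxidant factor Nfe2l2 (0.38) and Irf2bp2 (0.78). Cebpb, a factor of the acute phase and of fat cells, rose 2.10-fold (log2 1.07, SE 0.24, adjusted p = 0.0403). Sox4, a factor of progenitor cells, had 4.54 and 4.62 log2 CPM in untreated and 3.65 and 3.15 in rivaroxaban hearts, and fell by 1.18 on the log2 scale, to 0.440 of the untreated level (SE 0.15, adjusted p = 0.00204). Sox4 was stable and lies on chromosome 13 from 28948919 to 28953713. Tcf15, a helix-loop-helix factor of heart capillaries that drives fatty acid uptake, had 5.38 and 5.97 log2 CPM in untreated and 4.72 and 4.56 in rivaroxaban hearts. Its fall to 0.488 (log2 -1.04, SE 0.16, adjusted p = 0.0065) was no longer called without rivaroxaban replicate 15; over the fits with 1 library removed it ranged from -1.33 to -0.74. Mef2c, a muscle factor, Cited2, Ahr and Bhlhe41, a repressor in the circadian clock, fell by 0.29, 0.46, 0.68 and 0.45 on the log2 scale.

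Of 21 tested clock genes 2 were called, 9.52% against 2.46% of all tested genes. Per1, which glucocorticoids and cyclic AMP also induce, rose 1.73-fold and Bhlhe41 fell, and the median was 0.01; neither was called without rivaroxaban replicate 15. Arntl and Nr1d1, the opposed arms of the clock, missed the threshold at 0.32 and -0.00 (adjusted p = 0.526 and 0.992), and Dbp, a clock output, one of -0.39 (adjusted p = 0.113). The labels give no time of harvest.

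The promoters of several risers hold letters that the glucocorticoid receptor and CREB are known to bind. RefSeq promoters, 250 bases before to 50 bases after the start of a gene on GRCm38.p6, were matched for 9986 tested genes, among them 159 called risers and 101 called fallers. A glucocorticoid response palindrome was searched as GNACA, then any 3 bases, then TGTNC. It stood in 0.401% of the 9986 genes and in 0.475% of all 32851 promoters, in 5 of the 159 risers (3.14%) and in none of the 101 fallers. The 5 stretches are shown because all 5 genes belong to the rises described here, including the potassium channel Kcna5. Capitals mark the palindrome, and each stretch runs 5′ to 3′ on the strand of the gene.
Sgk1 (chr10:21993662-21993754, plus strand): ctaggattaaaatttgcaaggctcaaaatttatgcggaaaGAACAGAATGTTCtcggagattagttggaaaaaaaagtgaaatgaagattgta
Kcna5 (chr6:126535562-126535654, minus strand): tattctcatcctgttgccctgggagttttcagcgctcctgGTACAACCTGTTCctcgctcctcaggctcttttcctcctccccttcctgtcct
Fam107a (chr14:8309845-8309937, minus strand): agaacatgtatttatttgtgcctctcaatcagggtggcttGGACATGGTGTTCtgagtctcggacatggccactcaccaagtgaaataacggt
Map3k6 (chr4:133240597-133240689, plus strand): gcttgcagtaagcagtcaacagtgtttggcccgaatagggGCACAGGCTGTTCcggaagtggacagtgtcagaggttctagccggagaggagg
Slc10a6 (chr5:103629514-103629606, minus strand): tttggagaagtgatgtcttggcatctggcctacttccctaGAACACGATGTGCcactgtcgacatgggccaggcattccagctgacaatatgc
The palindrome began 188 bases before the start of Sgk1, 59 before that of Kcna5, 118 before that of Fam107a, 181 before that of Map3k6 and 163 before that of Slc10a6. Sgk1, a kinase that sets ion channel abundance, had 5.58 and 5.44 log2 CPM in untreated and 6.68 and 6.69 in rivaroxaban hearts. Fam107a, an actin-binding stress protein, rose 3.04-fold, the kinase gene Map3k6 2.33-fold and Slc10a6, a carrier of sulfated steroids, 2.19-fold. Sgk1, Kcna5 and Map3k6 were stable, and Fam107a and Slc10a6 lost their calls without untreated replicate 8 or rivaroxaban replicate 15.

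The full cyclic AMP response element, TGACGTCA, stood in 3.44% of the 9986 genes and in 1.79% of all promoters, in 7 risers (4.40%) and in 1 faller, Mlf1 (0.99%). The 4 stretches below belong to risers that the text describes for other reasons, and capitals mark the element. The other 3 risers were Epha2, Flcn and Zbtb21.
Errfi1 (chr4:150854979-150855066, plus strand): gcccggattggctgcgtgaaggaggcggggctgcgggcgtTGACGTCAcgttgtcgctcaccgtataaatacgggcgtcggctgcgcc
Btg2 (chr1:134079274-134079361, minus strand): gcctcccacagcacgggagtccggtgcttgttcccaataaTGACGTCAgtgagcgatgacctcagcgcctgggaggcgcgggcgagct
Maff (chr15:79347451-79347519, plus strand): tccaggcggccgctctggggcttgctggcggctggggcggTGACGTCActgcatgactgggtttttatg
Slc25a25 (chr2:32424169-32424256, minus strand): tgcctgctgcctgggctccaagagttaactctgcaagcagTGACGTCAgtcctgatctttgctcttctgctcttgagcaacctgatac
Errfi1, which restrains EGF receptor signalling, had 4.60 and 4.34 log2 CPM in untreated and 5.59 and 5.71 in rivaroxaban hearts, and rose 2.27-fold (log2 1.18, SE 0.09, adjusted p = 1.16e-04). Slc25a25, a mitochondrial carrier of ATP and magnesium, rose 1.55-fold. In all, 9 patterns were searched, and their letters were settled after the calls were known. The shorter core of the palindrome, ACA, 3 bases and TGT, stood in 5.12% of genes, 9.43% of risers and 7.92% of fallers. TGACG, the arm of the cyclic AMP element, stood on either strand in 34.1% of genes, 42.1% of risers and 19.8% of fallers. The AP-1 letters TGANTCA stood in 6.20% of genes, 9.43% of risers and 8.91% of fallers. CCACACCC, which Kruppel-like factors bind, stood in 4.45%, 6.29% and 2.97%, and the E-box CACGTG in 11.7%, 15.1% and 9.90%. A heat shock element of 3 alternating GAA and TTC units, spaced by 2 bases, stood in 0.581% of genes and in 1.26% and 0.99% of risers and fallers; Hsph1 was 1 of the 2 risers. The serum response element (CArG box) stood in 1.56%, 0.629% and 0.99%. Both strands were covered for every pattern, the core lies within the palindrome and TGACG within the full element, and a match is a run of letters, not a measured binding site.

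Several feedback inhibitors of signalling and of mRNA stability rose. Of 33 genes of mRNA decay 5 rose and none fell, 15.2% called against 2.46% of all tested genes, with a median of 0.05. Tob2, which recruits the deadenylase that shortens poly-A tails, had 6.06 and 6.14 log2 CPM in untreated and 7.08 and 7.37 in rivaroxaban hearts, and rose 2.18-fold (log2 1.13, SE 0.09, adjusted p = 1.16e-04). Its relative Btg2 rose 1.44-fold, while Tob1 and Btg1, at -0.12 and -0.30, did not pass. Zfp36, which binds AU-rich elements of cytokine mRNAs, rose 1.30-fold, Rc3h1 1.36-fold and Pnrc1 1.26-fold, while Zfp36l1 and Zfp36l2, at -0.21 and 0.02, did not pass. Tob2 was the 1 stable member, and the list had 1 riser without rivaroxaban replicate 15, 2 without untreated replicate 8 and 3 without untreated replicate 9 or rivaroxaban replicate 14.

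Of 31 feedback inhibitors of receptor kinases 2 rose, Errfi1 and Spry1 (log2 0.38); Errfi1 alone did without untreated replicate 8 or either rivaroxaban replicate. Of 33 genes of the NF-kB pathway 3 rose and none fell, 9.09% called against 2.46% of all tested genes. The risers were the deubiquitinase gene Otud1 (log2 1.27, limma adjusted p = 2.06e-04, stable), the inhibitor Nfkbia (0.51) and Tnfaip2 (0.41). Without either untreated replicate or without rivaroxaban replicate 15, 1 of the list rose. Of 41 genes of growth arrest and apoptosis 5 rose and none fell, 12.2% called, with a median of 0.07. Besides Tob2 and Btg2 these were Cdkn1a, an inhibitor of cyclin-dependent kinases (1.90-fold), Bcl2l1, which blocks apoptosis (1.57-fold), and Ier5 (1.5-fold). Without rivaroxaban replicate 15 only Tob2 kept its call, and Cdkn1a, Bcl2l1, Ier5 and Btg2 lost theirs. Some of these rises were also lost without untreated replicate 8. Of 47 genes of the cell cycle none was called by limma, with a median of 0.16 that ranged from -0.05 to 0.29 with 1 library removed; 5 had an unadjusted p under 0.05 and none passed with limma voom. Of 53 chaperone genes 5 rose and none fell, 9.43% called. The risers were the steroid receptor partner Fkbp5 (2.09-fold), Dnajb1 (1.74-fold), Dnaja1 (1.57-fold), Hsph1 (1.47-fold) and Dnajb5 (1.24-fold). Changes on this list ran from -0.34 to 1.12 on the log2 scale. The highest was that of Hspa1b, an HSP70 gene, which did not pass (limma adjusted p = 0.0677). None of the list was called higher without rivaroxaban replicate 15, 1 without either untreated replicate and 8 without either dabigatran replicate.

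A few genes of cyclic AMP and hormone signalling rose. Of 42 genes of salt-inducible kinases, CREB partners and cyclic AMP breakdown 2 rose and 1, Akap5, fell. That is 7.14% called against 2.46% of all tested genes, with a list median of 0.09. Sik1, a kinase that CREB induces and that holds CREB's partners out of the nucleus, had 4.58 and 4.88 log2 CPM in untreated and 6.24 and 6.67 in rivaroxaban hearts. It rose 3.31-fold (log2 1.73, SE 0.19, adjusted p = 9.46e-04) and was stable. Pde4b, which breaks down cyclic AMP, rose 1.33-fold, and Rgs4, which shortens G protein signals, 1.57-fold; both lost their calls without rivaroxaban replicate 15. Tsc22d3 (GILZ), a mediator of glucocorticoid action, had 6.46 and 6.25 log2 CPM in untreated and 7.14 and 7.41 in rivaroxaban hearts, a stable 1.9-fold rise. Of 20 alpha-arrestins and thioredoxin genes 2 rose, Arrdc2 2.32-fold and Arrdc3 1.36-fold, with a list median of -0.04; neither was called without rivaroxaban replicate 15. Snrk, a kinase related to AMPK, rose 1.44-fold and Ppp1r10, a nuclear subunit of protein phosphatase 1, 1.75-fold, and both were stable.

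Genes of nutrient sensing and transport changed in both directions. Of 41 genes of insulin, IGF and mTOR signalling 3 rose and 3 fell, 14.6% called against 2.46% of all tested genes. Ddit4, an inhibitor of mTORC1, had 4.59 and 4.45 log2 CPM in untreated and 5.72 and 5.88 in rivaroxaban hearts (log2 1.28, SE 0.13, adjusted p = 8.14e-04) and was stable. Irs2, an adaptor of the insulin receptor, rose 2.21-fold from a low level, and the pseudokinase gene Trib1 1.46-fold. The binding proteins Igfbp5 and Igfbp6 fell to 0.817 and 0.675 and Cited2 to 0.729 of the untreated level. The list had 1 rise and 1 fall without untreated replicate 8 or without rivaroxaban replicate 14, and 1 rise and no fall without rivaroxaban replicate 15. Of 218 solute carriers 5 rose and 5 fell, 4.59% called against 2.46% of all tested genes, with a median of 0.00. There was 1 rise without rivaroxaban replicate 15, and there were 2 falls without rivaroxaban replicate 14, 3 without either untreated replicate and 8 without either dabigatran replicate. Slc7a1, which imports arginine and lysine, had 5.50 and 5.52 log2 CPM in untreated and 6.19 and 6.32 in rivaroxaban hearts (log2 0.74, SE 0.07, adjusted p = 4.81e-04). The amino acid carriers Slc38a2 and Slc38a3 rose 1.42-fold and 1.32-fold. Slc6a6, the taurine carrier, fell to 0.684 (log2 -0.55, SE 0.07, adjusted p = 0.00325), and Slc7a15 to 0.718. Slc7a1 and Slc6a6 were stable.

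Energy metabolism showed no called gene in its main lists. None of 77 nuclear genes of oxidative phosphorylation was called by limma (8 had an unadjusted p under 0.05, none passed with limma voom), and 69 of them lay below 0, with a median of -0.07. Of 43 genes of fatty acid oxidation and 40 of glycolysis none was called either with all 6 libraries, with medians of -0.03 and -0.02. An unadjusted p under 0.05 was seen for 8 and 6 of them, and none passed with limma voom. With 1 library removed the medians ranged from -0.1 to 0.04 and from -0.06 to -0.02. Calls among the fatty acid genes then appeared in both directions, depending on the library left out. Pdk4, a switch from glucose to fat use that rises in fasting, had 7.82 and 6.47 log2 CPM in untreated and 8.03 and 9.59 in rivaroxaban hearts. Ucp3, which also rises in fasting, had 6.39 and 5.01 in untreated and 6.13 and 6.86 in rivaroxaban hearts. The replicates of a group thus differed by over 1 log2 unit in Pdk4, and neither gene passed (adjusted p = 0.113 and 0.331). Both were chosen after their values were seen, and the labels say nothing of feeding. Of 70 ribosomal protein genes all 70 lay below 0, with a median of -0.11 that stayed between -0.13 and -0.08 in the settings run other than the one without trend; Rpl3 was the called one (log2 -0.27, adjusted p = 0.019).

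A few genes of lipid and methyl group metabolism were called, though the lists of fat oxidation and fat synthesis held no call; they were chosen by size, level or after their values were seen. Acer2, a ceramidase, had 3.70 and 3.89 log2 CPM in untreated and 4.60 and 5.02 in rivaroxaban hearts, a 2.02-fold rise. Sgms1, which makes sphingomyelin, rose 1.45-fold and Lpin3, a phosphatidate phosphatase, 1.73-fold. These 3 were stable. Plin4, a coat protein of lipid droplets, rose 1.44-fold and lost its call without untreated replicate 9 or rivaroxaban replicate 15. Mat2a, which makes the methyl donor S-adenosylmethionine, had 7.40 and 7.31 log2 CPM in untreated and 7.89 and 8.06 in rivaroxaban hearts, a stable 1.54-fold rise. Inmt, a methyltransferase that uses this donor, had 4.63 and 4.89 in untreated and 3.68 and 3.74 in rivaroxaban hearts and fell to 0.484, also stable.

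**Figure D3:**
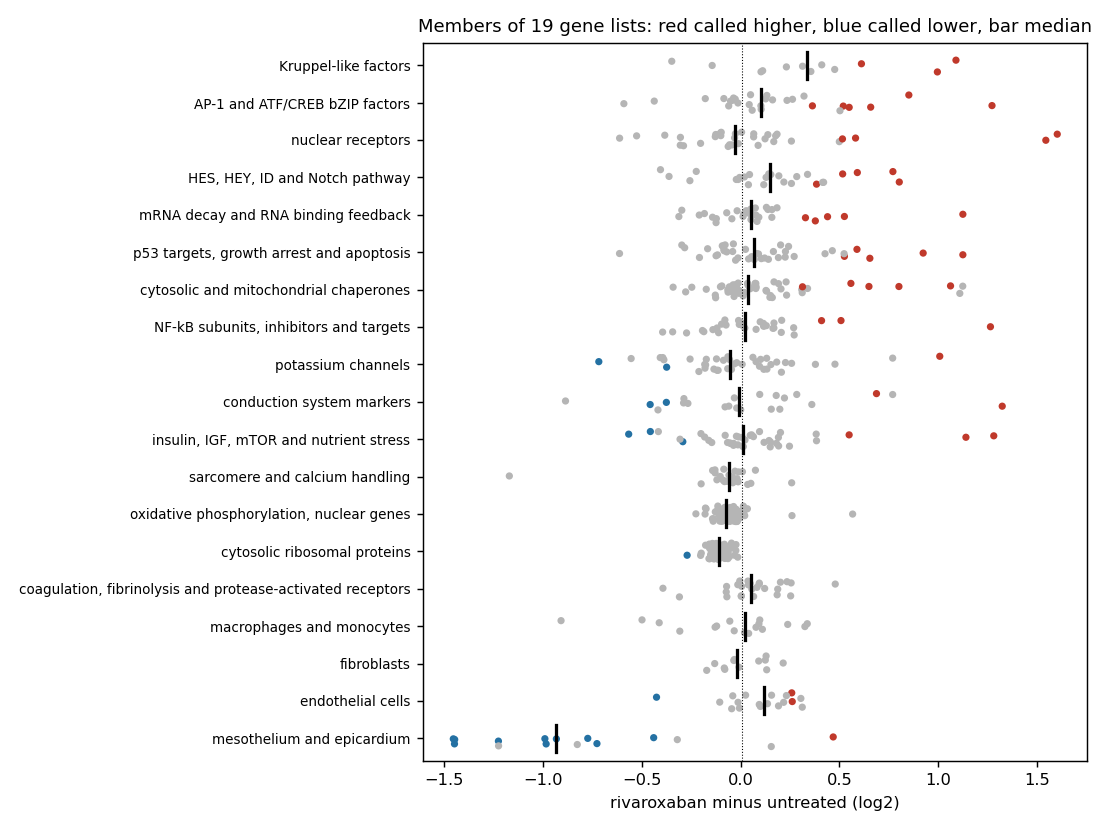
Log2 difference between rivaroxaban and untreated hearts for each tested member of 19 gene lists, 1 point per gene, with called rises in red, called falls in blue and a bar at the median of the list; the dotted line is the median of all tested genes. The mesothelial list stands apart with a median of -0.93, the Kruppel-like factors lie at 0.33, and the lists of respiration and ribosome form narrow bands just below 0.

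Markers of the mesothelium were the cell type list with the most calls. Of 15 tested markers 10 fell and 1 rose, 73.3% called against 2.46% of all tested genes, with a median of -0.93 against 0.005. Both groups stood apart in each called marker. Msln, mesothelin, had 4.13 and 4.29 log2 CPM in untreated and 2.82 and 3.15 in rivaroxaban hearts, a fall to 0.428 (adjusted p = 8.14e-04). Krt19, a keratin, had 2.79 and 2.18 log2 CPM in untreated and 1.12 and 0.96 in rivaroxaban hearts (log2 -1.45, SE 0.21, adjusted p = 0.00551). Nkain4 had 2.21 and 2.39 in untreated and 0.77 and 0.93 in rivaroxaban hearts (log2 -1.45, SE 0.18, adjusted p = 0.00204). Efemp1, a matrix protein, fell to 0.585, Upk3b to 0.524 and the complement gene C3, which other cells make too, to 0.737. Wt1, a factor of the epicardium, rose 1.38-fold, and Tbx18, another epicardial factor, did not pass (log2 0.16, adjusted p = 0.629). The keratin Krt8 (log2 -1.23, adjusted p = 0.11), Bnc1 (log2 -0.83, adjusted p = 0.215) and Aldh1a2 (log2 -0.32, adjusted p = 0.222) did not pass either.

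The summed level of the 16 listed mesothelial markers was 374 and 359 CPM in untreated and 233 and 274 CPM in rivaroxaban hearts. C3, which other cells make too, weighs most in this sum, at 7.84 and 7.79 log2 CPM in untreated and 7.24 and 7.52 in rivaroxaban hearts. All 16 had at least 10 reads in 1 or more of the 6 libraries. Dmkn, however, had 7 and 0 reads in untreated and 0 and 2 in rivaroxaban hearts. The number of called falls was 4 without untreated replicate 8, 6 without untreated replicate 9, 5 without rivaroxaban replicate 14 and 7 without rivaroxaban replicate 15, and the median lay between -1.13 and -0.73. Msln, Nkain4, Efemp1 and Upk3b were stable. Outside the list, the tight junction gene Cldn15 (log2 -0.97, stable) and Rspo1, which strengthens Wnt signals (-0.93), also fell. How far the mesothelial share of the tissue bears on other falls was not tested.

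**Figure D4:**
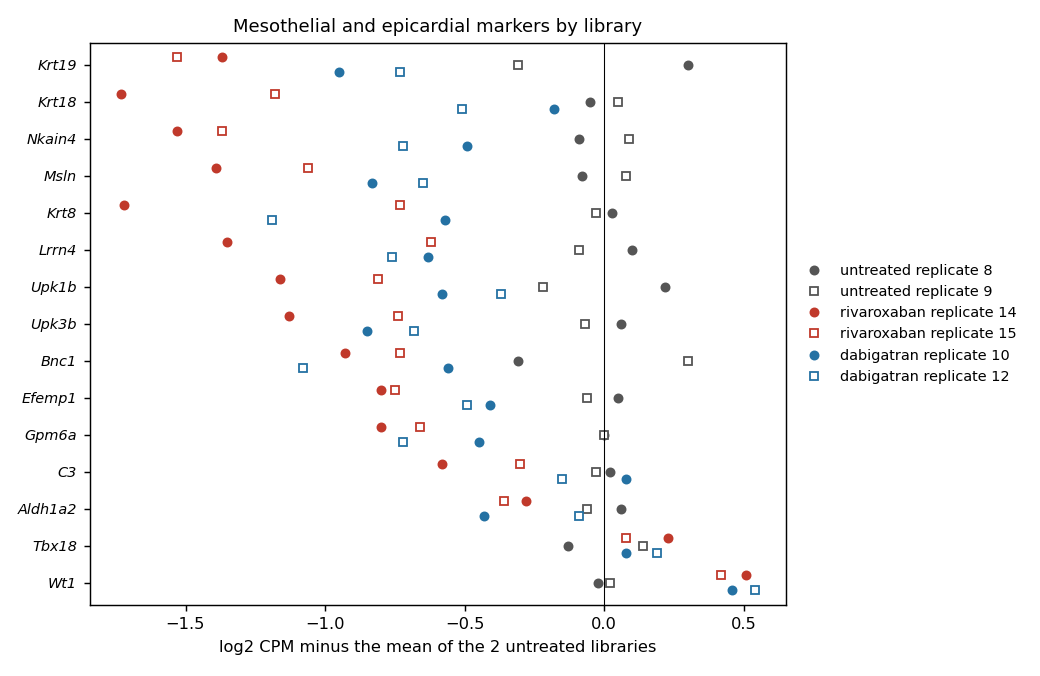
Level in each of the 6 libraries as log2 CPM minus the mean of the 2 untreated libraries, for the 15 tested mesothelial and epicardial markers. Red rivaroxaban points lie left of both grey untreated points for 13 of the 15 markers, down to -1.73 for Krt18; Wt1 is the called marker on the right, and blue dabigatran points lie apart from both other groups and between them for 6 markers, Msln, Upk1b, Krt18, Krt19, Nkain4 and Efemp1.

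Lists for other cell types held at most 3 calls each. Of 9 cardiomyocyte markers none was called by limma and none had an unadjusted p under 0.05, with a median of -0.05; their summed level was 95200 and 95500 CPM in untreated and 90300 and 92000 CPM in rivaroxaban hearts. Of 12 fibroblast and 17 macrophage markers none was called, with medians of -0.02 and 0.02; 1 and 6 had an unadjusted p under 0.05, and none passed with limma voom. Of 7 tested T, NK and B cell markers 1 fell, the T cell receptor subunit Cd247, to 0.408. The summed level of the 16 listed lymphocyte markers was 35.2 and 34.7 CPM in untreated and 26.6 and 21.8 CPM in rivaroxaban hearts, and Cd3d, Cd3g, Cd8b1 and Ncr1 had under 10 reads in every library. Of 4 tested genes on the neutrophil list Lcn2, which other cells make under stress, fell to 0.519. Another of the 4, Vamp5, at 5.62 to 5.76 log2 CPM, was matched by a synonym and is not a named neutrophil marker. The list median of -0.44 therefore does not describe neutrophils. Mmp9, not called, had 2.21 and 1.90 log2 CPM in untreated and 1.43 and 1.06 in rivaroxaban hearts, while Csf3r overlapped. With all 6 libraries limma called none of the 3 tested erythroid markers, though 2 had an unadjusted p under 0.05. None passed with limma voom either, but calls appeared when untreated replicate 8 was left out of limma. All 3 markers lay above 0, with a median of 0.87 that ranged from 0.29 to 1.45 with 1 library removed. Among them Slc4a1, which exchanges anions across the red cell membrane, stood at -0.20 and -1.85 log2 CPM in untreated and 0.91 and 0.37 in rivaroxaban hearts (log2 1.67, SE 0.47, adjusted p = 0.0982). The summed level of the 5 listed erythroid markers was 49.0 and 32.6 CPM in untreated and 45.6 and 51.1 CPM in rivaroxaban hearts, so that it overlapped. Myh11, a myosin of smooth muscle, was the 1 called member of 13 pericyte and smooth muscle markers (log2 -0.34, adjusted p = 0.0416).

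Of 254 tested genes with the term microtubule 2 rose and 3 fell, 1.97% called, which is below the 2.46% of all tested genes. Of 296 with the term actin binding 9 rose and 4 fell, 4.39% called. Single genes are described here for their level or change. Tuba4a, an alpha-tubulin and among the most abundant called genes, had 9.97 and 10.00 log2 CPM in untreated and 9.47 and 9.28 in rivaroxaban hearts (log2 -0.61, SE 0.08, adjusted p = 0.00312). Tuba8 fell by 0.64 and Tbce, a tubulin folding factor, by 0.58 on the log2 scale (adjusted p = 0.0447 and 6.3e-04). Abi1, an adaptor of the WAVE complex that starts branched actin, had 7.18 and 7.09 log2 CPM in untreated and 6.55 and 6.60 in rivaroxaban hearts (log2 -0.56, SE 0.06, adjusted p = 0.00103). Further WAVE complex genes missed the threshold, with a log2 change of 0.24 for Wasf2 (adjusted p = 0.0845), 0.06 for Nckap1, -0.02 for Cyfip1 and -0.16 for Brk1. Ctgf, a target of YAP and TGF-beta, rose 1.52-fold, and the focal contact genes Zyx and Sorbs3 rose by 0.33 and 0.37 on the log2 scale. Tbce and Abi1 were stable.

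Of 550 genes with the term extracellular space 5 rose and 14 fell, 2.55% lower against 0.986% of all tested genes, and of 150 with the term inflammatory response 7 rose and 5 fell, 8.0% called. Of 19 cytokines and chemokines 2 fell, 10.5% called. These were Csf1, the macrophage growth factor, which fell to 0.612, and Cxcl14, which fell to 0.600 of the untreated level. The median of the list was -0.13, and neither gene was called without rivaroxaban replicate 15. Of 36 interferon-stimulated genes 1 was called, Oas2, which rose 1.58-fold. That share of 2.78% is close to the 2.46% of all tested genes. Of 49 genes of matrix and matrix remodelling 3 rose and 1 fell, 8.16% called. Among the risers were the proteases and relatives Adamts1 (1.52-fold) and Adamtsl2 (1.98-fold), both stable, and Fmod, fibromodulin, fell to 0.610. Of 26 genes of coagulation, fibrinolysis and protease-activated receptors none was called by limma, with a median of 0.05; 5 had an unadjusted p under 0.05 and none passed with limma voom. Cyp26b1, which degrades retinoic acid, had 2.57 and 4.32 log2 CPM in untreated and 1.10 and 0.62 in rivaroxaban hearts. Its log2 change of -2.58 (SE 0.41, adjusted p = 0.00878) ranged from -3.46 to -1.71 over the fits with 1 library removed, and the call was lost without rivaroxaban replicate 15. The untreated hearts differed from each other by more than 1 log2 unit in this gene.

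Further called genes were abundant, strongly changed or stable. Rsrp1, an arginine- and serine-rich protein, had 8.12 and 8.16 log2 CPM in untreated and 8.62 and 8.75 in rivaroxaban hearts (log2 0.54, SE 0.06, adjusted p = 7.98e-04). Frmd5, a membrane-cytoskeleton linker, had 7.02 and 7.24 against 7.85 and 7.97. Rasl11b, a small GTPase of the Ras family, had 5.79 and 5.67 in untreated and 4.87 and 4.64 in rivaroxaban hearts and fell to 0.507 (adjusted p = 5.07e-04). Tnfrsf25, a death receptor, rose 2.51-fold from 1.85 and 1.52 log2 CPM. Cd200, a surface brake on myeloid cells, fell to 0.678, and Rarres2, the attractant chemerin, to 0.684. These 6 genes were stable, and their groups did not overlap. Ms4a4a, a marker of some macrophages, rose 2.43-fold at a level near 2 log2 CPM, and Rhob, a small GTPase of vessel lining, 1.35-fold; both were lost without rivaroxaban replicate 15.

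The difference between the drugs was tested directly, with the doses as they were, 3 mg/kg for rivaroxaban and 10 mg/kg for dabigatran. Of 12981 genes 10 passed, which is 0.077%. Of the 319 genes called against untreated hearts, 4 differed between the drugs: Abi1, Ccdc171, Cyp26b1 and Cxcl14. Abi1 was 6.55 and 6.60 log2 CPM with rivaroxaban and 7.23 and 7.11 with dabigatran, a difference of -0.60 (95% interval -0.74 to -0.46, adjusted p = 0.0147), and dabigatran hearts overlapped the untreated ones at 7.18 and 7.09. Ccdc171, a coiled-coil gene, was 4.98 and 5.14 with rivaroxaban and 5.56 and 5.60 with dabigatran (difference -0.52, interval -0.67 to -0.36, adjusted p = 0.0417), with 5.74 and 5.79 in untreated hearts. Cyp26b1 was 1.10 and 0.62 with rivaroxaban and 3.76 and 3.73 with dabigatran (difference -2.89, interval -3.79 to -1.98, adjusted p = 0.0417). Cxcl14 was 3.67 and 3.68 with rivaroxaban and 4.71 and 4.55 with dabigatran (difference -0.96, interval -1.27 to -0.64, adjusted p = 0.0447).

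The other 6 genes were not called against untreated hearts. Among them were Fah (difference -0.70), Zfp972 (-0.65), Bmp6 (-0.61), Zfp970 (-0.58) and Scn4a (-0.51). Bmp6, a BMP ligand that endothelium makes, was 4.5 and 4.66 log2 CPM with rivaroxaban and 5.18 and 5.21 with dabigatran, with a mean of 4.88 ± 0.10 (SD, n = 2) in untreated hearts. Zfp970 and Zfp972 are related zinc finger genes whose reads may be shared, so their 2 values are uncertain. No gene passed without rivaroxaban replicate 14, rivaroxaban replicate 15 or dabigatran replicate 10 in limma, with 647, 841 and 740 genes at an unadjusted p under 0.05, and 1 gene passed with limma voom.

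For the genes that lead the account above, the dabigatran libraries gave values of their own against the same untreated hearts. Kcna5 was 5.86 and 5.74 log2 CPM with dabigatran, Id1 5.90 and 5.89, Sgk1 6.56 and 6.79 and Kcnj2 5.33 and 5.39. The difference between the drugs did not pass for these genes: it was 0.14 for Kcna5, 0.32 for Id1, 0.01 for Sgk1 and -0.23 for Kcnj2 on the log2 scale. Since both comparisons use the same untreated libraries, these values are given side by side only.

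**Figure D5:**
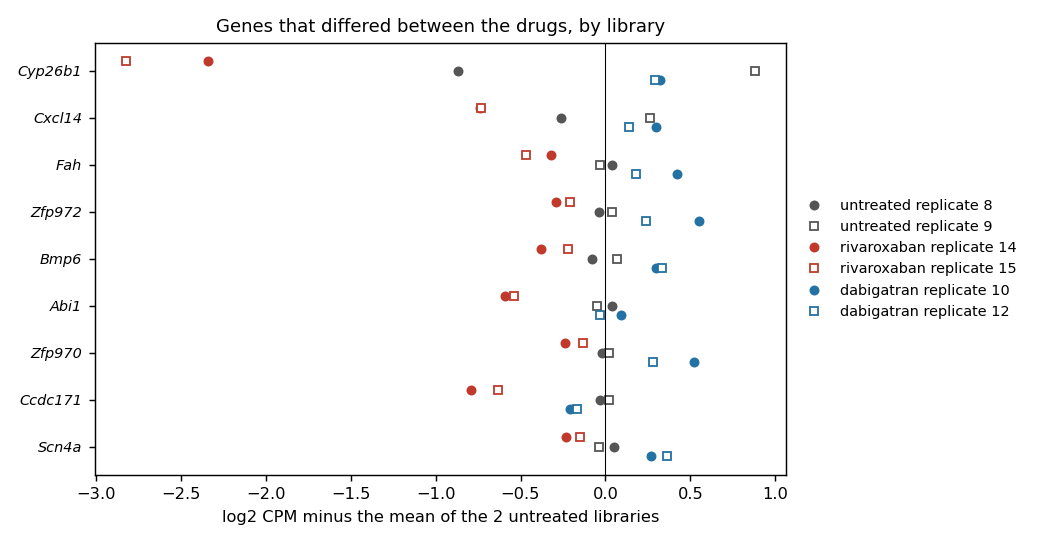
Level in each of the 6 libraries as log2 CPM minus the mean of the 2 untreated libraries, for 9 of the 10 genes that differed between rivaroxaban and dabigatran. The rivaroxaban points lie left of the dabigatran points in each gene; in Abi1 the dabigatran points sit on the untreated ones, and the untreated points of Cyp26b1 lie far apart.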

How the data were processed

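Poly-A RNA of 6 mouse heart samples was sequenced with a directional kit, per the labels' protocols. Tools named without versions in the submitters' processing notes are STAR, edgeR, Trim Galore, FastQC and bcl2fastq, with build mm10. Which program counted reads, and on which annotation: not given in the sources used here. The deposited values are log2 CPM scaled by TMM by the authors, per the file headers. Each library has the same lowest value, -4.04, which shows a constant added ahead of the log2, so changes of low genes are understated. After that floor was taken off, 100% of the values below 200 reads were whole reads within 0.02 reads, which gave 27176892 to 43798222 reads per library. The libraries carry no stated molecular identifiers, so reads are not independent molecules.

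Samples were grouped by treatment, 2 libraries each. Using limma 3.58.1 (R 4.3.3), each gene was modelled by 3 group means over the 6 libraries (eBayes with a mean-variance trend; 3 residual and 7.75 prior degrees of freedom), so libraries share an estimate of spread. Tests were two-sided with Benjamini-Hochberg adjustment over 12981 genes and a threshold of 0.05; intervals are at 95%. The script was tested on simulated data.

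The comparison, its genes and the 67 gene lists were chosen with earlier results of these data known, and the patterns for potassium channel, solute carrier and cytochrome genes were narrowed after list results were seen. Of 1686 list entries 1497 matched by symbol and 17 by RefSeq synonym. Genes were named by rule: called genes with groups that do not overlap, a level of at least 1 log2 CPM in a group and an ordinary symbol, taking the 25 largest rises, 25 largest falls, 20 smallest p-values and 15 highest levels, and called list members. Genes outside the rule were chosen after their values were seen. Some genes that met the rule or a threshold are not reported here. Gene coordinates are from GENCODE M21 (GRCm38, the assembly of mm10) and promoters from RefSeq, GRCm38.p6. Alternatives were other filters, scalings, variance models and sample sets, and limma voom on the recovered reads.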

Additional observations from a re-analysis of the deposited data

How the results depend on the processing

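Against untreated hearts, 319 genes were called, 191 higher and 128 lower, and no named gene reversed in any of 15 settings. Without the mean-variance trend 0, 0 and 0 were called, with 1938 genes at an unadjusted p under 0.05. Leaving out 1 library gave 61 to 410 calls, 37 to 238 higher and 24 to 172 lower. Between the drugs, 10 genes were called, against 0 without the trend (984 at an unadjusted p under 0.05), 1 with quantile normalization, 1 with limma voom and 0 to 20 with 1 library left out. The cause of these shifts was not tested, though leaving out a library also leaves fewer samples. With all other settings the count against untreated hearts lay within 1.5 times. Of 144 genes chosen by the naming rule, 38 were called in every setting but the one without trend. Limma voom on the recovered reads (299 calls, 283 of them shared) was chosen after seeing the data. The planned edgeR and DESeq2 fits were not run. No paired analysis was possible because the groups share no replicate numbers. With 2 libraries per group, small changes in genes of low read number were not detectable at this depth.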
